A study of Bos taurus with 16 samples.

Results

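The genes described here are 9 smooth muscle contractile genes, CNN1, CNN2, CNN3, ACTA2, TAGLN, MYH11, CALD1, LMOD1 and SMTN, found by gene ID among the 34109 genes listed for the series. They were chosen by the counts of CNN1 in round muscle, which were lower in calves from overfed cows, so the diet difference in round muscle is given as a description and nothing is tested with it. The series is bulk RNA sequencing of round muscle (hind leg) and sirloin muscle. Both were taken directly after birth from Hanwoo calves, a Korean beef breed of Bos taurus. The calves were male, each muscle was sampled from 8 calves, and this gave 16 libraries. In the control group, 4 cows were fed 100% of their nutritional requirement, and in the treated group, 4 cows were fed 150% from mid to late pregnancy. The calves themselves received no diet: they were taken from their mothers before any colostrum. No genotype, transgene or drug separates the groups. The question was whether the CNN1 difference moved with the vessel content of the tissue or without it, by diet, muscle and calf.

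Smooth muscle in the walls of arteries and veins contracts on a thin filament of smooth muscle actin (ACTA2) bound by transgelin (TAGLN), calponin 1 (CNN1) and caldesmon (CALD1). Its motor is smooth muscle myosin heavy chain (MYH11). Smoothelin (SMTN) marks contractile smooth muscle cells, and leiomodin 1 (LMOD1) helps to build actin filaments. CNN2 and CNN3 are the calponins found also outside smooth muscle. Many of these genes share a transcriptional control, serum response factor with myocardin or the myocardin-related factors, which also acts in fibroblasts, muscle precursors and skeletal muscle fibres. In skeletal muscle the vessel walls and pericytes (together, mural cells) are a usual source of the contractile transcripts. In bulk tissue, fewer cells of a type and less RNA per cell cannot be told apart.

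The libraries held between 44473011 and 72446933 counted reads. Levels below are CPM, a gene's reads relative to the library total, scaled by the TMM method over all 16 libraries. The tissue label was checked with 8 skeletal muscle fibre genes, such as ACTA1 and TTN, whose summed level lay between 85222 and 167766 CPM in every library. The 9 smooth muscle genes together reached 169.0 to 428.1 CPM.

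Levels of different genes can be compared only per length, and for that the deposited TPM, which are scaled for gene length, were used. In round muscle of control calves TAGLN had the highest mean, 87.3 ± 20.8 TPM (SD, n = 4), followed by ACTA2 with 60.8 ± 35.4 TPM and CNN1 with 46.6 ± 2.85 TPM. CNN3 followed with 30.6 ± 14.0 TPM, CALD1 with 29.4 ± 9.41 TPM and SMTN with 20.4 ± 6.30 TPM. The lowest were CNN2 with 6.74 ± 1.99 TPM, LMOD1 with 6.55 ± 7.17 TPM and MYH11 with 4.66 ± 3.20 TPM. Neighbours in this order overlapped between calves, except that every SMTN value was above every CNN2 value. In the other 3 groups CNN1 stood lower in the order, behind TAGLN, ACTA2, SMTN, CALD1 and CNN3. Its mean was 14.6 ± 5.48 TPM in round muscle of treated calves, 11.9 ± 8.60 TPM in sirloin muscle of control calves and 11.2 ± 11.2 TPM in sirloin muscle of treated calves (SD, n = 4 each).

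CNN1 in round muscle measured 44.0, 40.9, 44.1 and 44.8 CPM in control calves 1 to 4, and 15.7, 8.79, 18.0 and 7.98 CPM in treated calves 1 to 4. The groups did not overlap, and the control calves lay within 1.09-fold of each other, against 2.26-fold among the treated calves. In sirloin muscle CNN1 measured 21.7, 2.55, 6.54 and 12.98 CPM in the control calves and 2.92, 5.66, 22.5 and 4.84 CPM in the treated calves. Here the groups overlapped throughout, with an 8.53-fold range in control calves and a 7.71-fold range in treated calves. All 4 control round libraries thus lay above every other library, and the treated round libraries lay within the range of sirloin muscle. The counts behind these values ran from 148 to 3159 reads, so counting error was small beside the spread between calves.

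**Figure D1:**
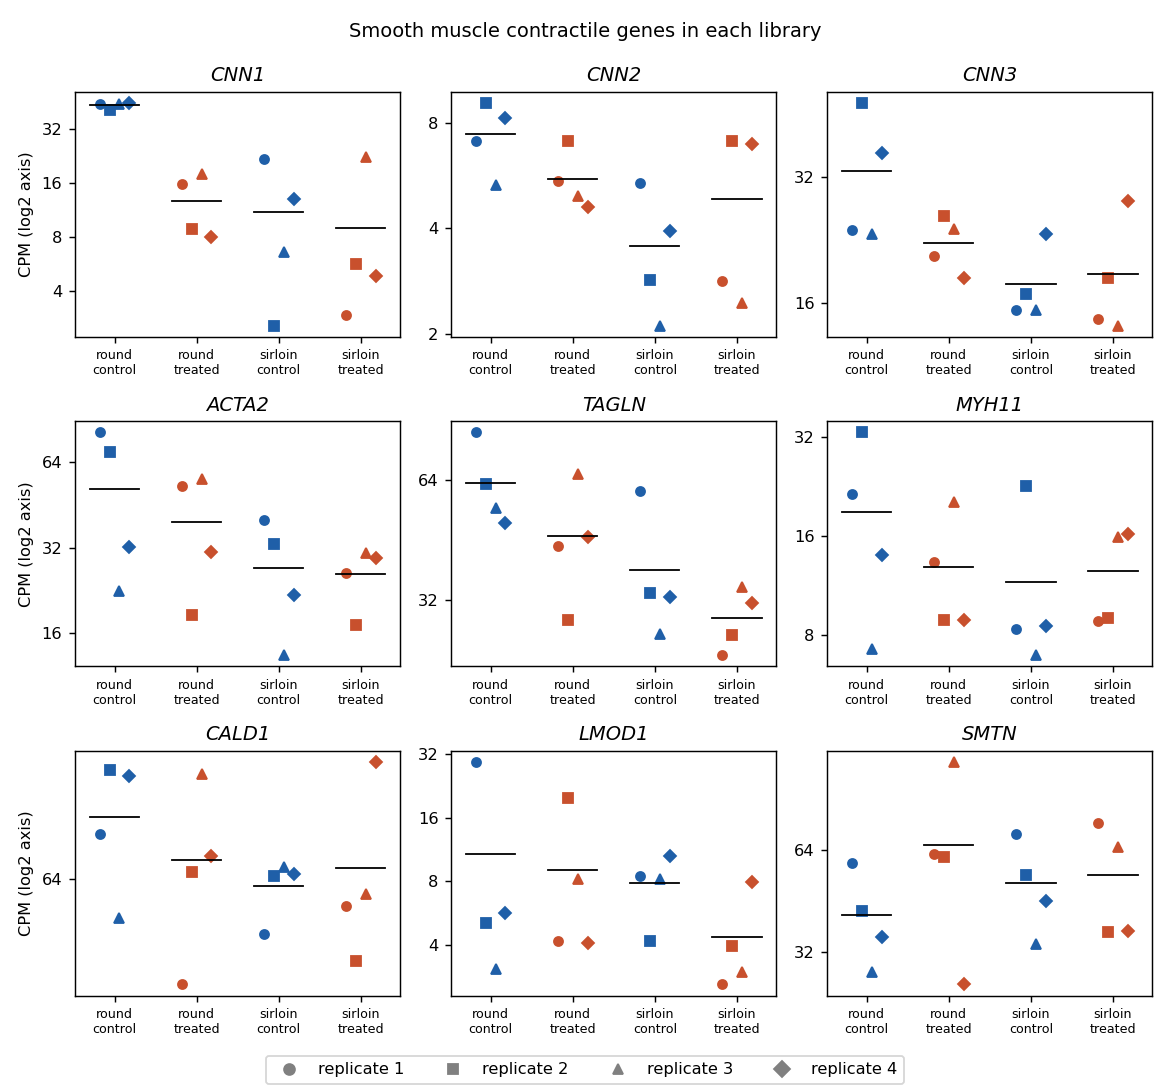
Level of each of the 9 smooth muscle genes in every library, in CPM on a log2 axis, by muscle and diet. Each point is 1 library, the shape gives the replicate number of the calf and the bar is the group mean. CNN1 is the gene whose round groups separate, 40.9 to 44.8 CPM in control calves against 7.98 to 18.0 CPM in treated calves, while the other genes overlap between the diets in both muscles.

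The other calponins did not show that separation. CNN2 in round muscle measured 7.10, 9.12, 5.32 and 8.26 CPM in control calves and 5.46, 7.10, 4.96 and 4.60 CPM in treated calves. CNN3, the more abundant of the pair, measured 23.9, 48.2, 23.4 and 36.7 CPM in control calves and 20.8, 25.8, 24.0 and 18.4 CPM in treated calves. For both genes the treated values reached into the control range, and the highest control calf, replicate 2, was the same for both. In sirloin muscle CNN2 ranged from 2.11 to 5.40 CPM in control and from 2.46 to 7.12 CPM in treated calves, and CNN3 from 15.3 to 23.3 CPM and from 14.1 to 28.0 CPM.

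Among the partners of CNN1 on the thin filament, ACTA2 in round muscle measured 81.6, 69.7, 22.6 and 32.2 CPM in control calves and 52.8, 18.6, 56.1 and 30.9 CPM in treated calves. TAGLN measured 84.4, 62.6, 54.6 and 49.9 CPM in control calves and 43.8, 28.5, 66.5 and 46.2 CPM in treated calves. Both diets held high and low calves for these genes, and control calves 3 and 4, whose CNN1 was as high as that of the others, were the lowest of their group for ACTA2 and TAGLN. CALD1, which restrains myosin on actin, ranged from 54.2 to 102.2 CPM in control and from 40.8 to 100.4 CPM in treated round muscle. In sirloin muscle ACTA2 ranged from 13.4 to 40.2 CPM in control and from 17.0 to 30.6 CPM in treated calves, TAGLN from 26.3 to 60.0 CPM and from 23.3 to 34.4 CPM, and CALD1 from 50.7 to 67.4 CPM and from 45.1 to 105.8 CPM. ACTA2 is uncertain as a measure of smooth muscle, because its coding sequence closely resembles that of the skeletal actin ACTA1, and the counting may have split reads between them. ACTA1 stood at 14592 to 41703 CPM, between 372.1 and 1984 times ACTA2 in the same library. With the group means removed, the correlation of ACTA2 with ACTA1 over the 16 libraries, which come from 8 calves, was 0.27 (Pearson) and 0.38 (Spearman). The part of ACTA1 reads in the ACTA2 counts was not tested.

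The motor gene MYH11 in round muscle measured 21.4, 33.0, 7.24 and 14.0 CPM in control calves and 13.3, 8.87, 20.2 and 8.90 CPM in treated calves. LMOD1 was carried by single calves, with 29.3 CPM in control calf 1 and 19.9 CPM in treated calf 2 against 3.06 to 8.24 CPM in the other round libraries. SMTN was the gene with the higher treated values, at 58.7, 42.3, 27.9 and 35.6 CPM in control calves and 62.3, 61.0, 116.9 and 25.7 CPM in treated calves. Treated calf 3 was the highest and treated calf 4 the lowest of all round libraries for SMTN, so its groups overlapped. In sirloin muscle MYH11 ranged from 6.95 to 22.7 CPM in control and from 8.83 to 16.2 CPM in treated calves, LMOD1 from 4.18 to 10.6 CPM and from 2.60 to 7.97 CPM, and SMTN from 33.8 to 71.6 CPM and from 36.7 to 77.2 CPM.

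In the fit of the diet in round muscle, the log2 fold change of CNN1, treated over control, was -1.76 (SE 0.29). Of the other genes, 7 had smaller negative values, from -0.55 (SE 0.27) for CNN3 and -0.54 (SE 0.43) for MYH11 to -0.23 (SE 0.70) for LMOD1. Between these lay TAGLN with -0.42 (SE 0.28), CNN2 with -0.41 (SE 0.28), ACTA2 with -0.36 (SE 0.44) and CALD1 with -0.25 (SE 0.30). SMTN had a positive value of 0.71 (SE 0.40). Several of these rested on single calves. LMOD1 was 0.99 without control calf 1, and ACTA2 was -0.0447 without control calf 1 and -0.13 without treated calf 2. MYH11 was -0.15 and CNN3 -0.35 without control calf 2, TAGLN was -0.25 without control calf 1 and -0.26 without treated calf 2, and CALD1 was -0.0680 without treated calf 1. SMTN was 0.28 without treated calf 3. CNN1 stayed between -1.997 and -1.62 whichever calf was left out. The median of the 9 genes was -0.41, beside 0.02 over all 21677 genes tested. By edgeR's quasi-likelihood test 0 of 9 passed an adjusted p of 0.05, beside 0.0185% of all genes, and 1 of 9, CNN1, was lower at an unadjusted p under 0.05, beside 2.49% of all genes. DESeq2 called 1 of 9, CNN1, beside 0.208% of all genes. In 1 of 9, again CNN1, every treated calf was below every control calf, beside 1.07% of all genes. These counts describe the contrast by which the genes were chosen and carry no test. Of 8 fibroblast genes, such as the collagen COL1A1, 7 had negative values in the same contrast, with a median log2 fold change of -1.32 and 0 passing the adjusted threshold. The lowest were COL1A1 with -1.61 (SE 0.80) and POSTN with -1.60 (SE 0.80), and the highest were PDGFRA with 0.28 (SE 0.36) and DCN with -0.69 (SE 0.34). Their summed level ranged from 854.6 to 5595 CPM in control and from 546.9 to 1356 CPM in treated round muscle. COL1A1 ranged from 144.9 to 2278 CPM in control (mean 718.7, SD 1040, n = 4) and from 107.8 to 381.1 CPM in treated round muscle. Its negative value thus leaned on high control values, and the fibroblast values were not examined without single calves. None of the 8 was at 0 throughout. Over the same 4 control libraries CNN1 stayed between 40.9 and 44.8 CPM. In sirloin muscle 5 of the 8 fibroblast genes had positive values by diet, with a median of 0.34. The part of fibroblast content in the CNN1 difference was not tested.

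In sirloin muscle, whose values did not choose the genes, 0 of 9 passed the adjusted threshold by edgeR (0.00918% of all 21776 genes did) or by DESeq2 (0.0597%). At an unadjusted p under 0.05 edgeR gave 0 of 9, beside 3.91% of all genes, and DESeq2 gave 1 of 9, LMOD1, which was lower in treated calves, beside 1.53% of all genes. The diets overlapped for all 9 genes, beside 0.822% of all genes with every treated calf below and 0.859% with every treated calf above the control calves. CNN1 had a log2 fold change of -0.28 (SE 0.71, edgeR adjusted p = 1.00), and its place in the order of p-values was 15152 of 21776. In round muscle it was 7 of 21677, but that place comes from the contrast by which CNN1 was chosen, so the 2 places are not a test. The sirloin log2 fold change of CNN1 turned with single calves: it was 0.29 without control calf 1 and -1.30 without treated calf 3. LMOD1, with -0.85 (SE 0.41, edgeR adjusted p = 0.876), and TAGLN, with -0.40 (SE 0.27, edgeR adjusted p = 0.876), had lower values than CNN1. ACTA2, SMTN, CNN3, MYH11 and CALD1 lay between -0.07 and 0.10, and CNN2 had 0.43 (SE 0.43). The median of the 9 genes was 0.08, beside 0.03 over all genes tested. The TAGLN value rested on control calf 1, without which it was -0.0990 in sirloin muscle.

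**Figure D2:**
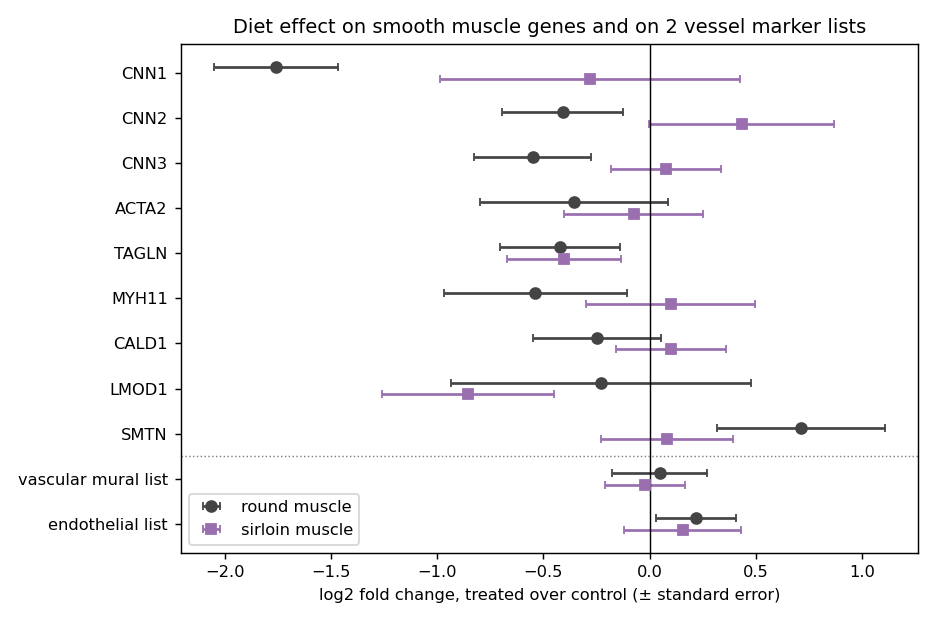
Log2 fold change of treated over control for the 9 smooth muscle genes and, below the dotted line, difference of the mean log2 CPM of the mural and endothelial marker lists, in round muscle (circles) and sirloin muscle (squares), with bars of 1 standard error. CNN1 in round muscle lies at -1.76, and the vessel lists lie between -0.02 and 0.22 in both muscles.

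The diet effect of CNN1 in round muscle minus that in sirloin muscle was -1.5 (SE 0.83) on the log2 scale, and -1.53 (SE 0.66) with calf as a block. This difference contains the round contrast and is given as a description. No gene of the 9 passed the adjusted test of it by edgeR or DESeq2, nor did any gene of the 22877 tested (0%). With the block, 0 of 9 passed, beside 0.00437% of all genes. The standard error of the CNN1 diet effect was 0.71 in sirloin muscle against 0.29 in round muscle, so the sirloin value is the less firmly measured.

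Vessel content was measured by marker lists that hold none of the 9 genes. The mural list had 11 genes of pericytes and vascular smooth muscle cells, among them the receptors NOTCH3 and PDGFRB, and the endothelial list had 14 genes, among them PECAM1, CDH5 and VWF. No gene of either list was at 0 in all libraries. Of the mural genes ABCC9 had the highest mean over all libraries, 81.1 CPM, and NDUFA4L2 and ITGA8 the lowest, 0.69 and 0.91 CPM. The summed level is thus weighted towards ABCC9, while a mean of log2 CPM gives the genes of low level equal weight. Whether other cells of the tissue also express the list genes was not tested. The summed mural level in round muscle ranged from 162.5 to 292.0 CPM in control and from 159.5 to 255.8 CPM in treated calves, and in sirloin muscle from 188.8 to 290.3 CPM and from 171.4 to 229.1 CPM. The diets overlapped in both muscles. The summed endothelial level in round muscle ranged from 258.1 to 440.1 CPM in control and from 391.4 to 465.0 CPM in treated calves. The groups overlapped, and control calf 3 was the lowest. In sirloin muscle it ranged from 312.4 to 446.4 CPM and from 283.4 to 646.2 CPM.

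As the mean log2 CPM of the mural list, treated minus control was 0.05 (SE 0.22, n = 4 per group) in round muscle, with an exact permutation p of 0.886, and -0.02 (SE 0.19) in sirloin muscle, with an exact permutation p of 0.971. For the endothelial list it was 0.22 (SE 0.19) in round muscle, with an exact permutation p of 0.343, and 0.16 (SE 0.28) in sirloin muscle, with an exact permutation p of 0.771. The round value was 0.0417 without control calf 3, and the sirloin value was -0.0952 without treated calf 4 and 0.30 without treated calf 3. On the TPM scale the endothelial values were 0.33 in round muscle (exact permutation p = 0.143) and 0.32 in sirloin muscle (exact permutation p = 0.2). These tests were two-sided, and 4 calves against 4 cannot go below 0.0286. Neither list thus differed by diet beyond the spread between calves. Of single mural genes in round muscle, CSPG4 and HEYL had the lowest log2 fold changes, -0.49 (SE 0.56) and -0.47 (SE 0.27), and NDUFA4L2 and PDGFRB the highest, 0.91 (SE 0.53) and 0.39 (SE 0.39). In sirloin muscle HEYL and ABCC9 had the lowest, -0.76 (SE 0.30) and -0.56 (SE 0.22), and MCAM and PDGFRB the highest, 0.73 (SE 0.59) and 0.31 (SE 0.32). HEYL and ABCC9, 2 of 11, were lower in treated calves at an unadjusted edgeR p under 0.05, beside 352 of all 21776 genes. Of the endothelial genes in round muscle, VWF and KDR had the lowest, -0.27 (SE 0.32) and -0.05 (SE 0.29), and CLDN5, a tight junction gene, and TIE1 the highest, 0.96 (SE 0.42) and 0.53 (SE 0.30). CLDN5, 1 of 14, was higher in treated calves at an unadjusted edgeR p under 0.05, beside 417 of all 21677 genes. In sirloin muscle VWF and CDH5 had the lowest, -0.51 (SE 0.32) and -0.03 (SE 0.21), and CLDN5 and EMCN the highest, 1.18 (SE 0.63) and 0.43 (SE 0.21). For EMCN in sirloin muscle every treated calf was above every control calf, beside 0.859% of all genes. By edgeR, 0 of 11 mural and 0 of 14 endothelial genes passed the adjusted threshold in either muscle, beside 0.0185% of all genes in round and 0.00918% in sirloin muscle. The median over the mural genes was -0.00 in round muscle and -0.03 in sirloin muscle, and over the endothelial genes 0.18 and 0.23. Positive values by diet were held by 11 of 14 endothelial genes in round and 12 of 14 in sirloin muscle. Of the 11 mural genes, 5 were positive in each muscle.

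The level of CNN1 relative to the mural list in the same library, as a difference of log2 CPM, was 2.48, 1.82, 2.75 and 2.53 in control round muscle and 0.82, -0.07, 0.84 and 0.30 in treated round muscle. The groups did not overlap. Treated minus control was -1.92 (SE 0.30), about as large as the difference of CNN1 itself, and -1.64 (SE 0.34) relative to the mean of the other 8 smooth muscle genes. Both are descriptions, since they hold the round values of CNN1. In sirloin muscle the difference relative to the mural list was -0.33 (SE 1.04), with an exact permutation p of 0.771 over 4 calves against 4. Relative to the other 8 genes it was -0.28 (SE 0.90), with an exact permutation p of 0.8. Relative to the vessel markers CNN1 in sirloin muscle therefore varied more between calves of the same diet than between the diets.

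**Figure D3:**
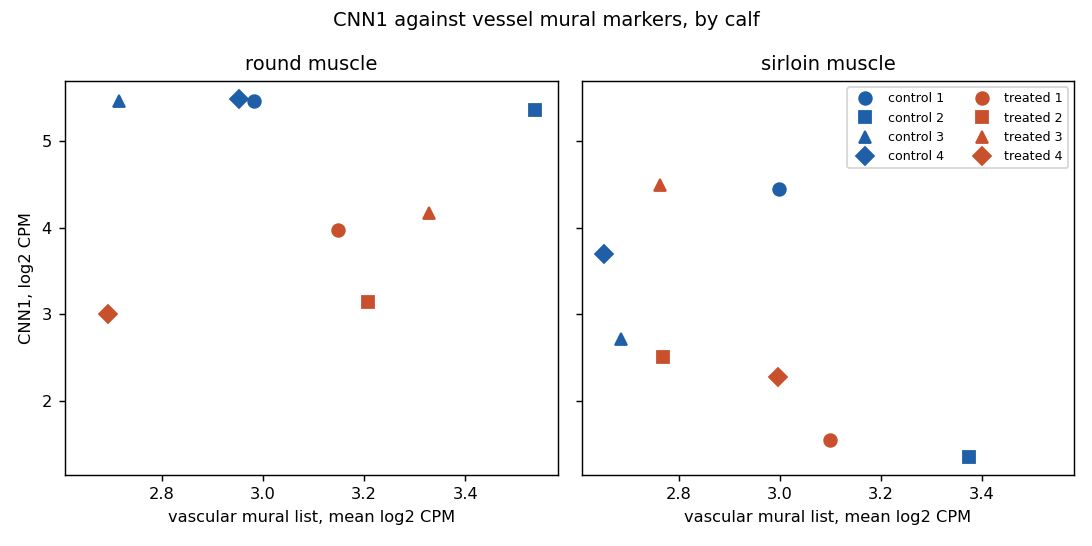
CNN1 (log2 CPM) against the mean log2 CPM of the 11 mural genes in round muscle (left) and sirloin muscle (right), on shared axes. Each point is 1 calf, with colour for diet and shape for replicate number. In round muscle the treated calves lie below the control calves over the same range of the mural list, and in sirloin muscle the diets are mixed.

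Calf by calf, with the diet means removed, CNN1 in round muscle had r = 0.36 with the mural list over 8 calves (exact permutation p = 0.474, rho = 0.24, exact permutation p = 0.753). It had r = 0.19 with the endothelial list (exact permutation p = 0.325, rho = 0.21, exact permutation p = 0.531) and r = 0.37 with the mean of the other 8 genes (exact permutation p = 0.361, rho = 0.14, exact permutation p = 0.722). Without the 2 calves farthest from the median of the list these r values were 0.31, 0.57 and 0.60. None of these passed the test. They use the round values of CNN1 by which the genes were chosen, and with control calves within 1.09-fold of each other for CNN1 they can show little of a relation in that group. In sirloin muscle r with the mural list was -0.60 (exact permutation p = 0.160, rho = -0.69, exact permutation p = 0.0868), and -0.28 without the 2 farthest calves. There r was -0.18 with the endothelial list (exact permutation p = 0.672, rho = -0.36, exact permutation p = 0.413) and 0.20 with the other 8 genes (exact permutation p = 0.674, rho = 0.05, exact permutation p = 0.941). Without the 2 farthest calves these became -0.87 and 0.42. None of the relations in sirloin muscle passed the test either, and that with the mural list was weaker without those 2 calves. CNN1 in sirloin muscle against CNN1 in round muscle of the same calf had r = 0.35 (exact permutation p = 0.599, rho = 0.38, exact permutation p = 0.451), and -0.13 without the 2 farthest calves. Over these 7 relations the adjusted p was 0.674 for every r and between 0.608 and 0.941 for rho.

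Some of the 9 genes did vary together, others did not. Over the 16 libraries of 8 calves with the group means removed, Pearson's correlation of log2 CPM was 0.78 between ACTA2 and TAGLN, 0.76 between ACTA2 and MYH11 and 0.62 between ACTA2 and SMTN. With the mural list MYH11 had 0.74, SMTN 0.59, ACTA2 0.55, CNN3 0.40, CALD1 0.31, CNN2 0.21, TAGLN 0.14 and LMOD1 0.02. Of the broadly expressed calponins, CNN3 had 0.64 with CNN2 and 0.61 with CALD1, while CNN2 with CALD1 had 0.12. CALD1 had 0.50 with MYH11. With the endothelial list CNN2 had 0.63, CALD1 0.61, CNN3 0.60, ACTA2 0.51, LMOD1 0.50, MYH11 0.50, TAGLN 0.37 and SMTN 0.14. The mean of the 8 genes other than CNN1 had 0.77 with the endothelial list and 0.59 with the mural list. CNN1 had 0.55 with TAGLN, 0.30 with SMTN and 0.24 with ACTA2, and between -0.14 and 0.10 with the remaining genes. It had -0.28 with the mural list and -0.11 with the endothelial list. These 2 values pool muscles of opposite sign and are weighted towards sirloin muscle, where CNN1 varied more within groups. By muscle, CNN1 had 0.36 in round and -0.60 in sirloin muscle with the mural list, and 0.19 and -0.18 with the endothelial list. The correlations over 16 libraries are descriptions across libraries that share calves, and they carry no test.

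Round and sirloin muscle could be compared within a calf. Round over sirloin, the ratio of CPM for ACTA2 was 2.03, 2.11, 1.69 and 1.48 in the control calves, and for treated calves it was 2.03, 1.09, 1.84 and 1.05. For TAGLN it was 1.41, 1.87, 2.07 and 1.53 in the control calves, and for treated calves it was 1.88, 1.09, 1.93 and 1.47. Both genes were higher in round muscle in 8 of 8 calves, which held for 1.15% of all genes, although by TPM ACTA2 was higher in 7 of 8. For CNN1 the ratio was 2.02, 16.1, 6.75 and 3.45 in the control calves, and for treated calves it was 5.38, 1.55, 0.80 and 1.65. CNN1 was thus higher in round muscle in 7 of 8. CNN3 was higher in round muscle in 7 of 8 calves, CNN2 and MYH11 in 6 of 8, CALD1 and LMOD1 in 5 of 8 and SMTN in 2 of 8.

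**Figure D4:**
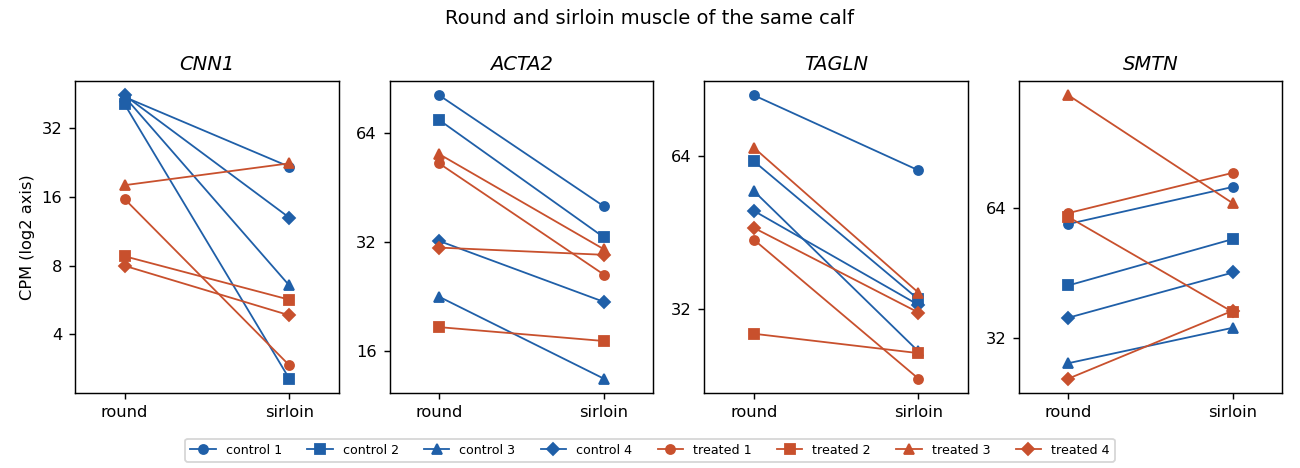
CPM of CNN1, ACTA2, TAGLN and SMTN in round and sirloin muscle, on log2 axes, with a line for each calf, colour for diet and shape for replicate number. ACTA2 and TAGLN are higher in round than in sirloin muscle in 8 of 8 calves, CNN1 in 7 of 8 and SMTN in 2 of 8.

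Averaged over the diets, the log2 fold change of round over sirloin muscle was 1.24 (SE 0.42) for CNN1, 0.77 (SE 0.30) for ACTA2, 0.70 (SE 0.20) for TAGLN, 0.63 (SE 0.26) for CNN2 and 0.57 (SE 0.19) for CNN3. These 5 of 9 had an unadjusted edgeR p under 0.05 and were higher in round muscle, beside 3.3% of all 22877 genes. For CNN1 this contrast holds the round values by which the genes were chosen, so its values here are a description and carry no test. Mean CNN1 in round and sirloin muscle was 43.5 and 10.9 CPM in control calves, and 12.6 and 8.97 CPM in treated calves. None of the 9 passed the adjusted threshold in this fit, beside 0.0612% of all genes, and DESeq2 called none, beside 0.367%. The adjusted edgeR p was 0.519 for TAGLN, 0.679 for CNN1 and CNN3, 0.718 for ACTA2 and 0.756 for CNN2. The muscles of a calf are paired, and with calf as a block 2 of 9 passed, beside 0.533% of all genes. They were TAGLN, higher in round muscle by 0.70 (SE 0.11, edgeR adjusted p = 0.0182), and ACTA2, higher by 0.69 (SE 0.13, edgeR adjusted p = 0.0423). CNN1 had 1.60 (SE 0.40, edgeR adjusted p = 0.105) in the paired fit, CNN2 had 0.73 (SE 0.23, edgeR adjusted p = 0.204) and CNN3 had 0.58 (SE 0.17, edgeR adjusted p = 0.185). MYH11 with 0.37 (SE 0.32), CALD1 with 0.24 (SE 0.21) and LMOD1 with 0.76 (SE 0.46), or 0.17 without control calf 1 and 0.37 without treated calf 2, did not pass unadjusted, and SMTN lay at -0.01 (SE 0.27). The median of the 9 genes was 0.63, beside 0.17 for the mural list, 0.15 for the endothelial list and 0.00 for all genes. The 8 fibroblast genes had a median of 0.85, with 7 of 8 positive and 0 passing. The highest were POSTN with 1.54 (SE 0.69) and COL1A1 with 1.27 (SE 0.58), and the lowest PDGFRA with -0.07 (SE 0.24) and DCN with 0.19 (SE 0.24). Their part in these differences was not tested.

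The wider contraction machinery was described by 17 genes. Their mean levels over all libraries ran from 0.34 CPM for KCNMB1 to 4970 CPM for TPM1 and 13130 CPM for TPM2. ACTA2 had a mean of 36.0 CPM, and these levels are not scaled for gene length. How much of each transcript came from skeletal muscle fibres was not tested, so the values below cannot be assigned to smooth muscle. In round muscle 15 of 17 had negative values by diet, with a median of -0.21 beside 0.02 over all genes. By edgeR 0 passed the adjusted threshold, beside 0.0185% of all genes. At an unadjusted p under 0.05, 2 of 17 were lower in treated calves, beside 2.49% of all genes. PRKG1, the cyclic GMP-dependent kinase that relaxes smooth muscle, had -1.29 (SE 0.49) and the tropomyosin TPM4 had -0.99 (SE 0.31), while TPM2 had 0.34 (SE 0.38) and PPP1R12B, a myosin phosphatase subunit, had 0.33 (SE 0.26). In sirloin muscle 13 of 17 were negative, with a median of -0.26 beside 0.03 over all genes, and 0 passed, beside 0.00918%. There 1 of 17 was lower at an unadjusted edgeR p under 0.05, beside 352 of all 21776 genes. PRKG1 was again the lowest, with -1.24 (SE 0.44), followed by SYNPO2 with -0.65 (SE 0.54), and MYL6 and MYLK were the highest with 0.49 (SE 0.40) and 0.08 (SE 0.22). PRKG1 ranged from 20.7 to 112.9 CPM in control and from 15.9 to 56.9 CPM in treated round muscle, so its groups overlapped. Between the muscles 13 of 17 were higher in round muscle, 5 of them at an unadjusted p under 0.05, beside 3.3% of all genes, and 0 after adjustment, beside 0.0612%. The highest were the enteric smooth muscle actin ACTG2 with 1.07 (SE 0.37) and SYNPO2 with 0.93 (SE 0.39). The lowest were TPM2 with -0.23 (SE 0.23) and PPP1R12B with -0.14 (SE 0.17).

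The serum response factor and myocardin axis was described by 15 genes, the factors themselves and known targets. By diet in round muscle the median was -0.13 beside 0.02 over all genes, with 10 of 15 negative. By edgeR 0 passed the adjusted threshold, beside 0.0185% of all genes. At an unadjusted p under 0.05, 1 of 15 was lower in treated calves, beside 2.49% of all genes. ANKRD1, a stretch-responsive gene of striated muscle, had -3.00 (SE 0.82) and the non-muscle myosin MYH9 had -0.86 (SE 0.42), while FHL2 had 0.59 (SE 0.64) and CCN1 had 0.57 (SE 0.59). ANKRD1 ranged from 1011 to 7899 CPM in control and from 133.2 to 1228 CPM in treated round muscle, and the groups overlapped. In sirloin muscle 10 of 15 were negative, with a median of -0.27 beside 0.03 over all genes, and 0 passed, beside 0.00918%. There 1 of 15 was lower at an unadjusted edgeR p under 0.05, beside 352 of all 21776 genes. ANKRD1 was again the lowest with -1.76 (SE 0.79), before MYOCD with -0.63 (SE 0.47), and CCN1 and ACTG1 were the highest with 0.89 (SE 0.62) and 0.48 (SE 0.39). Between the muscles 13 of 15 were higher in round muscle, with a median of 0.60 beside 0.63 for the 9 smooth muscle genes. ANKRD1 had 2.37 (SE 0.63) and CCN2 had 1.54 (SE 0.38), and MRTFB had -0.16 (SE 0.18) and VCL had -0.15 (SE 0.24). Without the calf block edgeR called 0 of 15, beside 0.0612% of all genes, and DESeq2 called 1 of 15, CCN2, beside 0.367%. With the block edgeR called 2 of 15, beside 0.533% of all genes, CCN2 with 1.36 (SE 0.24, edgeR adjusted p = 0.0247) and the coactivator MRTFA with 0.51 (SE 0.10, edgeR adjusted p = 0.0471).

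The genes whose pattern was most like that of CNN1 were sought by Pearson's correlation of log2 CPM over the 16 libraries, among 12314 genes with a mean of at least 1 CPM. With the group means removed these were PLEKHM1 (0.90), ZSWIM4 (0.86), RNF41 (0.86), TJAP1 (0.86) and RBM10 (0.86). None of them is in the contraction or serum response factor lists. Within a group CNN1 ranged 8.53-fold (control) and 7.71-fold (treated) in sirloin muscle, against 1.09-fold and 2.26-fold in round muscle. This order is thus weighted towards sirloin muscle and shows little of round muscle. TAGLN, the nearest of the other 8, stood at place 775 in that order, SMTN at 2752 and ACTA2 at 3356. With the group means kept, so that the diet and muscle differences count, the nearest were DLK2 (0.89), SLC1A5 (0.88), TNFRSF12A (0.88), RNF115 (0.87) and FLNC (0.87). TAGLN then stood at place 34 with 0.79, CNN3 at 675, ACTA2 at 730 and CNN2 at 884. The second order uses the contrast that chose CNN1, and both are descriptions.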

How the data were processed

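RNA was sequenced from round and sirloin muscle of 8 calves. The authors deposited read counts per gene, with no normalization, and TPM values per gene and library, both keyed by NCBI gene ID. The sources differ on how these were made: the submitters' processing notes name FastQC, Trimmomatic, STAR, featureCounts, DESeq2 and the build ARS-UCD1.2 with poly(A) selection, while the study's methods name HISAT2, StringTie and depletion of ribosomal and globin RNA. This was not settled here, and use of strand in counting is not given in the sources used here. The deposited tables of the authors' fold changes and p-values were not used. Symbols came from a RefSeq table of another assembly, which named 30762 of 34109 IDs (90.2%) and all genes described. Columns of per-sample values left unused numbered 0. The 9 genes, the marker lists and the tests were chosen with earlier results of these data known.

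Counts were tested per muscle with edgeR 4.0.16 (glmQLFit and glmQLFTest, TMM, two-sided, Benjamini-Hochberg over every gene counted at least once per fit, R 4.3.3), and across the 16 libraries in 4 groups for the muscles. DESeq2 1.42.0, limma 3.58.1 with voom, size factors, a low-count filter, calf or replicate number as a block and leaving out each calf were alternatives. The edgeR, DESeq2 and limma-voom fits were tried on simulated counts with known changes. The list scores, permutation tests and correlations were not. List scores were means of log2 CPM (prior count 0.5), compared by exact permutation, and TPM alternatives used log2(TPM + 0.1), a scale that understates changes of low genes. Beside the 9 genes, the text gives the 2 highest and 2 lowest log2 fold changes of each list described (for the vessel lists, by diet) and the 5 genes most like CNN1. A few list genes with their role, and the genes that passed with the calf block, were named after their values were seen. The pairing of muscles by replicate number was checked on deviations from group means: same-numbered libraries of a diet correlated at 0.25 to 0.59 in all 8 pairs, those of different calves at -0.34 to 0.28, and 8 of 8 round libraries correlated best with their own number. Labels name no batch. Replicates are separate calves, so p-values of the diet tests within a muscle measure the spread between calves. The fits over 16 libraries in 4 groups treat the round and sirloin libraries of a calf as independent. With calf as a block, p-values measure the spread of the muscle difference over the calves.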

Additional observations from a re-analysis of the deposited data

Results flagged for a closer look

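Of 44 groups of 4 calves examined, 4 held a calf far from the other 3, and chance marks about 1 in 20 groups. CNN1 in sirloin muscle of treated calves had its highest value, 22.5 CPM, in treated calf 3. MYH11 in sirloin muscle of control calves was highest in control calf 2, at 22.7 CPM, the calf that was also highest for MYH11 in round muscle. CALD1 in sirloin muscle of control calves was lowest in control calf 1, at 50.7 CPM. LMOD1 in round muscle of control calves was highest in control calf 1, at 29.3 CPM.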

How the results depend on the processing

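With 4 calves per group the diet tests resolve only large differences. DESeq2 called 1 of 9 genes in round muscle (CNN1, adjusted p = 4.47e-05, against 0.196 by edgeR), and the calf block called 2 between the muscles, against 0 without it. CNN1 was chosen by the round contrast, so its adjusted p-values there show how the methods differ and carry no test. Numbers shared across the diets do not pair calves (correlations from -0.07 to 0.19 in round and -0.15 to 0.16 in sirloin muscle). With them as a replicate block the LMOD1 log2 fold change in round muscle was 0.15 and that of ACTA2 in sirloin muscle 0.000755, and limma-voom gave 0.0706 and 0.0178, each with the opposite sign to edgeR. The mural difference became -0.0290 in round muscle from summed CPM and 0.13 in sirloin muscle from TPM, and with group means removed 3 of the 5 genes most like CNN1 were shared on the TPM scale. Leaving out each calf, the CNN1 log2 fold change ranged from -1.997 to -1.62 in round and from -1.30 to 0.29 in sirloin muscle, LMOD1 in round from -0.96 to 0.99, and in sirloin muscle CNN3 from -0.17 to 0.24, ACTA2 from -0.30 to 0.17, MYH11 from -0.0805 to 0.65, CALD1 from -0.19 to 0.25 and SMTN from -0.15 to 0.28. SMTN between the muscles ranged from -0.16 to 0.12. The mural difference ranged from -0.0636 to 0.21 in round and from -0.11 to 0.13 in sirloin muscle, and the endothelial difference from 0.0417 to 0.30 in round and from -0.0952 to 0.30 in sirloin muscle. CNN1 in sirloin muscle ranged from -1.04 to 0.12 relative to the mural list and from -0.89 to 0.10 relative to the other 8 genes. The cause of these changes was not tested. Outside the settings that leave out a calf, 33 counts and scores and 146 fold changes of the 9 genes were labelled the same as in the main fit. For fold changes and tested scores this meant the same direction and side of the threshold, and for genes called an unchanged count. For the untested round scores of CNN1 it meant the same direction and a shift smaller than the SD between calves.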
